A study of Homo sapiens with 6 samples.

Results

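The 5 genes of the Rel family, which encode the subunits of the transcription factor NF-kB, and 5 genes that encode its inhibitors were followed in the RNA-seq of HT29 cells, a human colorectal adenocarcinoma line labelled as wild-type. The subunit genes are NFKB1, NFKB2, RELA, RELB and REL, and the inhibitor genes are NFKBIA, NFKBIB, NFKBIE, BCL3 and TNFAIP3. These 10 genes of the 60676 in the deposited tables were chosen by name, with earlier results of these data known. HT29 cells were kept for 48 h in control medium (untreated), in medium lacking histidine or in medium lacking tryptophan, and 2 libraries were made per condition, 6 in all. RPMI was the base of the histidine-free medium and DMEM F-12 that of the tryptophan-free one, both with dialyzed serum. Complete RPMI is named as the control for proteomics with the same depletion media, but the base of the control medium is not given for the RNA-seq. The base thus differed between the depletions and between the control and at least 1 of them, and wherever it differed the amino acid and the base cannot be told apart. In this design tryptophan depletion serves to separate a response to histidine shortage from a response to amino acid shortage in general.

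NF-kB acts as a dimer of Rel proteins. RELA, RELB and REL carry a transactivation domain, whereas NFKB1 and NFKB2 encode the precursors p105 and p100, which are processed to the DNA-binding subunits p50 and p52 and which, unprocessed, hold other subunits in the cytosol. NFKBIA, NFKBIB and NFKBIE encode the IkB proteins that mask the dimers until the IkB kinase marks them for degradation. BCL3 encodes an IkB-family protein that works in the nucleus with p50 and p52, and TNFAIP3 encodes a ubiquitin-editing enzyme that shuts signalling down upstream of the kinase. Dimers of RELA with p50 are typical of the canonical pathway, which inflammatory cytokines and microbial products switch on in intestinal epithelium. Dimers of RELB with p52 are typical of the non-canonical pathway. Several of these genes are themselves known NF-kB targets, in particular NFKBIA and TNFAIP3.

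Between 46390819 and 64388876 recovered reads per library lay behind the values, more than the average number of read pairs the labels give, so a count need not be 1 fragment, and every member had at least 81 reads in each library. Of 14 markers of colon epithelium 13 had a mean of at least 10 normalised counts, and the keratin gene KRT8 was the highest. Of 18 leukocyte markers 6 reached that level and 6 were at 0 in every library (CD3D, MS4A1, FCGR3A, TPSAB1, CPA3 and KIT). The summed leukocyte markers ranged from 314 to 334 normalised counts in untreated cells, from 372.2 to 372.4 after histidine depletion and from 563 to 566 after tryptophan depletion, against sums of 458159 to 654843 for the epithelial markers. Of the 14 epithelial markers 9 were lower and 5 higher after histidine depletion (median -0.55 on the log2 scale), where 38.2% of all genes tested were lower and 39.1% higher. After tryptophan depletion 3 were lower and 8 higher, where 34.8% of all genes tested were lower and 36.1% higher. CDX1 passed the filter only through the untreated libraries, and without it 8 of 13 were lower after histidine depletion and 2 of 13 after tryptophan depletion. KRT8, which carries much of the sum, went from 186625 and 201539 normalised counts to 320941 and 340439 after histidine depletion, while LGALS4 went from 54148 and 56465 to 17513 and 19660 and CEACAM5 from 497 and 540 to 66.9 and 104.8, and CDX1 from 22 and 19 to 0 in both. The part of these shifts in the members' changes was not tested. In bulk RNA fewer cells of a type and less RNA per cell cannot be told apart. Nothing in the sources used here says whether the 2 libraries of a condition came from separate cultures, so the p-values measure the spread between these libraries.

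Member promoters were searched for the kappaB consensus, the 10-letter motif that Rel dimers bind, on both strands, because members moved together after histidine depletion and some are known to be regulated by NF-kB itself. The RefSeq table (GRCh38.p14) held windows of 300 bases, from 250 bases before a start site to 50 bases from it on, for 8 of the 10 members, with 13 windows in all since some genes have several start sites. RELB and NFKBIE had no entry. At least 1 match lay in 8 of the 13 windows, which belonged to 7 of the 8 genes, all but RELA. A match was found in 11.3% of the 35116 windows of the table and in 13.3% of the 16723 windows of genes tested after histidine depletion. Counted by gene, 1986 of the 11682 tested genes with a window had a match in at least 1 window. Of the member windows 9 (69.2%) held the core GGGNNNNCC, against 62.4% of the windows of tested genes, and the median GC content was 68.7% against 64.3%. This core is a shorter motif with another spacing, not a relaxed form of the consensus. It overlaps with some of the kappaB matches, but a match need not hold it, as in the NFKBIA window (1 match, 0 cores). Windows of 1 gene share a locus, and a match of letters does not show a bound site. The first pair of windows printed had most matches, 3 each, and the TNFAIP3 window was taken from the 3 windows with 2 matches as that of the member with the largest increase after histidine depletion. They are given over the 150 bases before the start site, 5′ to 3′ on the strand of the gene, with matches in capitals. The second NFKB2 start site had matches beginning 107, 106 and 78 bases upstream, of which the first pair overlap, the second NFKBIB start site matches 28 and 27 bases upstream and another inside the transcript, and TNFAIP3 matches 67 and 55 bases upstream that read on the opposite strand.
NFKB2, chr10:102394428-102394577, plus strand: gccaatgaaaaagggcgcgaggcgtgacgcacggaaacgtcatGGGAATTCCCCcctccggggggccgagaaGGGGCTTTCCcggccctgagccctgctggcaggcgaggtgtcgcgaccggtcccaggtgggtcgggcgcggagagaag
NFKBIB, chr19:38899819-38899968, plus strand: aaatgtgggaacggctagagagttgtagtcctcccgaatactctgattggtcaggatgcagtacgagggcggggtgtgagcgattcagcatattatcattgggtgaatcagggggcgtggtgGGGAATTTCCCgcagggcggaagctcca
TNFAIP3, chr6:137867109-137867258, plus strand: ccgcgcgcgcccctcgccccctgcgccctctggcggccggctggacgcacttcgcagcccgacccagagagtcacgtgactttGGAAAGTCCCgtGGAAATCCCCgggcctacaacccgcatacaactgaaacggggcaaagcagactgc

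For the other windows with a match, 30 bases around the first match are given to show how the matched letters differ between members, again with the match in capitals. The matches began 49 bases upstream of the start site in NFKB1, 176 bases upstream in the third NFKB2 window, 47 bases upstream in REL and 81 bases upstream in NFKBIA, and 2 bases past the start site in BCL3. In REL the capitals cover a pair of overlapping matches, which begin 47 bases upstream on the strand of the gene and 46 bases upstream on the opposite strand. The third NFKB2 window held another match 21 bases upstream that is not printed.
NFKB1, chr4:102501300-102501329, plus strand: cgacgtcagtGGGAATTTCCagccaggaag
NFKB2, chr10:102395519-102395548, plus strand: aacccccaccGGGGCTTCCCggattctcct
REL, chr2:60881517-60881546, plus strand: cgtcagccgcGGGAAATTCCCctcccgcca
NFKBIA, chr14:35404811-35404840, minus strand: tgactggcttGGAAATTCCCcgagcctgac
BCL3, chr19:44748700-44748729, plus strand: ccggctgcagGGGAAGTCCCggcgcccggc

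**Figure D1:**
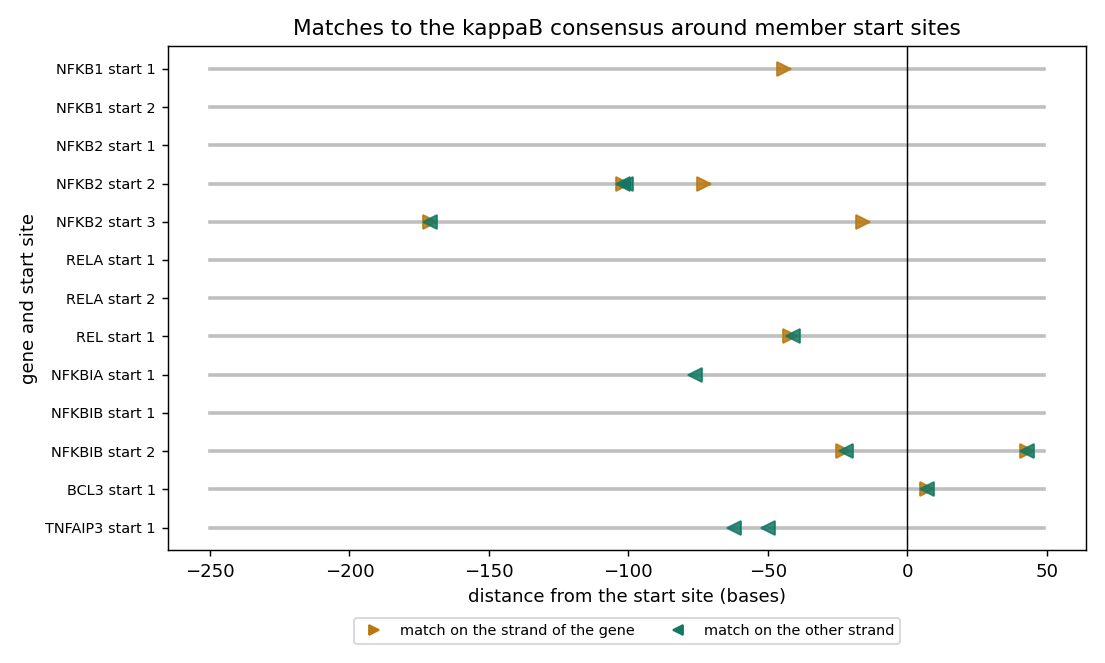
Positions of matches to the kappaB consensus (triangles, pointing along the matched strand) in the 13 promoter windows of 8 members, with the distance from the start site in bases on the x axis and each gene's start sites on the y axis. The 8 windows with a match belong to 7 genes, and both RELA windows are empty.

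The mRNA of all 10 members was higher in histidine-depleted than in untreated cells, most of all that of TNFAIP3, RELB and NFKBIE. The median member was higher by 2.16 on the log2 scale of the normalised count plus 1, against a median of 0.010 over all 18288 genes tested. All 10 passed the threshold (limma, adjusted p under 0.05), while 39.1% of all genes tested were called higher (32.1% with scaling to total reads, which gave 5894 genes higher and 8431 lower in place of 7149 and 6981). A log2 fold change of at least 1 was reached by 8 of the 10 members, the exceptions being REL and BCL3, and by 16.4% of all genes tested. In all 10 members both histidine-depleted libraries lay above both untreated libraries, as they did in 44.6% of all genes tested. The median was 2.14 for the 5 subunit genes and 2.17 for the 5 inhibitor genes. With 2 libraries against 2 an exact permutation test of a single gene cannot give a two-sided p below 0.33, and the calls rest on the spread that limma pools over all genes.

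Among the subunits, RELB had the largest increase and REL the smallest. RELA (ENSG00000173039, chr11:65653599-65663090), the main activating subunit of the canonical pathway, had 6819 and 7234 normalised counts in the untreated libraries, 30485 and 31078 without histidine and 9582 and 9430 without tryptophan. The histidine-depleted libraries stood 4.41-fold above the untreated ones (log2 fold change 2.14, SE 0.051, adjusted p = 3.95e-21). RELB (ENSG00000104856, chr19:45001461-45038192), the activating subunit of the non-canonical pathway, was at 680 and 794 in untreated cells, 4962 and 4952 without histidine and 1012 and 1062 without tryptophan. Its increase after histidine depletion was 6.78-fold (2.76, SE 0.065, adjusted p = 2.55e-21), and its 3 groups did not overlap. REL (ENSG00000162924, chr2:60881491-60931612), a subunit best known from lymphocytes, was at 743 and 800 in untreated cells, at 1128 and 1071 without histidine and at 757 and 733 without tryptophan. REL had the smallest increase of the 10 members after histidine depletion, 1.43-fold (0.52, SE 0.070, adjusted p = 3.2e-07). On 33.3% of its exon bases REL overlaps another gene model on the same strand (ENSG00000267520), which had 0 reads in every library, and the handling of reads that fit both is not given in the sources used here.

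The precursor genes differed in how far they moved. NFKB2 (ENSG00000077150, chr10:102394110-102402524), which encodes p100 and whose promoter windows are printed above, was at 1640 and 1950 normalised counts in untreated cells, 8718 and 8616 without histidine and 2134 and 1951 without tryptophan. It was 4.87-fold higher after histidine depletion (2.29, SE 0.063, adjusted p = 4.73e-20). NFKB1 (ENSG00000109320, chr4:102501330-102617302), which encodes p105, was at 4031 and 3991 in untreated cells, 10838 and 10489 without histidine and 2851 and 2761 without tryptophan. It was 2.67-fold higher after histidine depletion (1.42, SE 0.049, adjusted p = 3.7e-18), and its tryptophan-depleted libraries were the lowest of the 6.

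**Figure D2:**
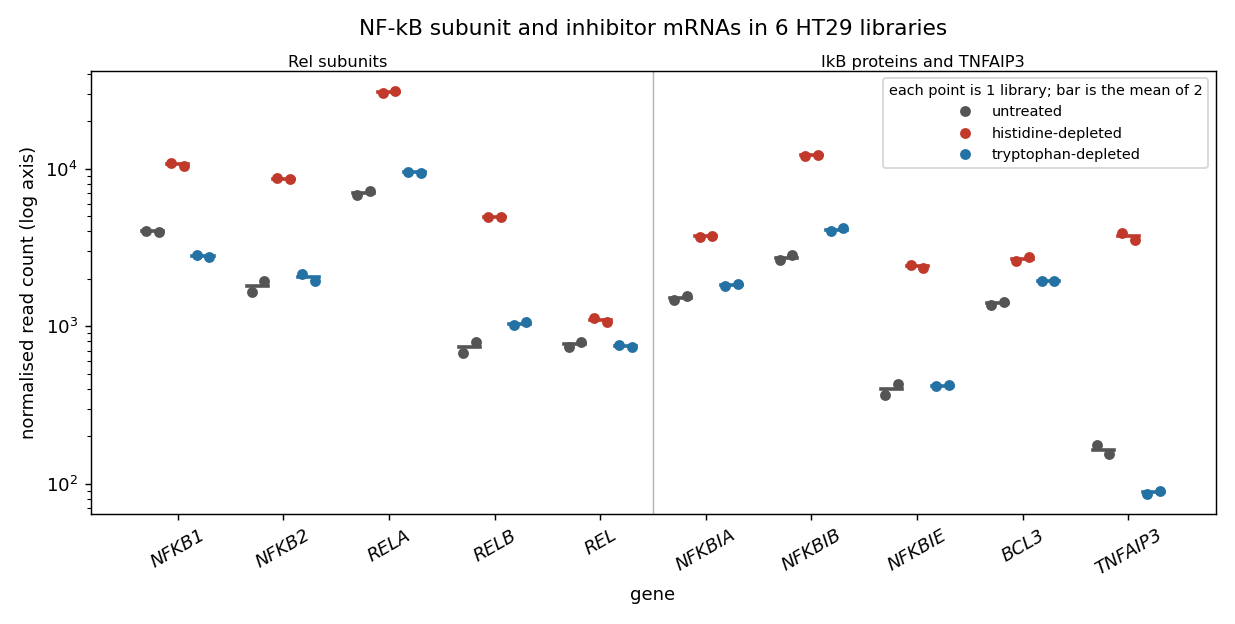
Normalised read counts (y axis, log scale) of the 10 members (x axis), with each point a library and each bar the mean of the 2 libraries of a condition. The histidine-depleted libraries are the highest for every member, from REL (1128 and 1071 against 743 and 800 in untreated cells) to TNFAIP3 (3913 and 3519 against 175 and 154), whereas the tryptophan-depleted libraries lie below the untreated ones for NFKB1 and TNFAIP3.

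Of the inhibitors, TNFAIP3 changed most. TNFAIP3 (ENSG00000118503, chr6:137867214-137883314) was at 175 and 154 normalised counts in untreated cells, at 3913 and 3519 without histidine and at 86 and 90 without tryptophan. The increase after histidine depletion was 22.6-fold (4.50, SE 0.078, adjusted p = 1.19e-23), which ranked it 110 among the 18288 genes tested. Its 3 groups were far apart, and the untreated libraries stood between the other two conditions. Of its exon bases 1.47% overlap WAKMAR2 on the opposite strand, as 1.89% of those of RELA overlap RELA-DT and 1.72% of those of NFKBIB overlap SIRT2, and reads from both strands cannot be told apart if strand was not used in counting.

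The cytosolic IkB genes rose by unequal amounts after histidine depletion. NFKBIE (ENSG00000146232, chr6:44258166-44265788), which encodes IkB epsilon, had 366 and 432 normalised counts in untreated cells, 2444 and 2348 without histidine and 416 and 420 without tryptophan, and was 6.05-fold higher after histidine depletion (2.60, SE 0.075, adjusted p = 1.21e-19). NFKBIB (ENSG00000104825, chr19:38899700-38908893), which encodes IkB beta, had 2625 and 2828, then 12098 and 12309, and 4035 and 4196 after tryptophan depletion, with an increase of 4.51-fold after histidine depletion (2.17, SE 0.052, adjusted p = 3.22e-21). NFKBIA (ENSG00000100906, chr14:35401079-35404749) encodes IkB alpha, the form resynthesised fastest after signalling. NFKBIA had 1460 and 1550 normalised counts in untreated cells, 3699 and 3769 without histidine and 1808 and 1843 without tryptophan, and its increase after histidine depletion was 2.50-fold (1.32, SE 0.055, adjusted p = 1.29e-16). In relative terms the gene for IkB alpha thus rose least of these 3, and the libraries of NFKBIA and NFKBIB fell into 3 groups without overlap.

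BCL3 (ENSG00000069399, chr19:44747705-44760044), the nuclear IkB-family gene, had 1361 and 1433 normalised counts in untreated cells, 2615 and 2736 without histidine and 1942 and 1949 without tryptophan. It was 1.93-fold higher after histidine depletion (0.95, SE 0.057, adjusted p = 1.74e-13). BCL3 and RELB lie on the same arm of chromosome 19, 241 kb apart with 10 protein-coding genes between them, yet their changes after histidine depletion were of different size.

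After tryptophan depletion the members did not move together. Of the 10 members 6 were called higher and 2 lower than untreated, while 36.1% of the 17960 genes tested were called higher and 34.8% lower. The median log2 fold change of the members was 0.23, against 0.013 over all genes tested. No member reached an absolute log2 fold change of 1, whereas 1801 of the 17960 genes tested were called higher and 1873 lower at this limit. In the deposited table groups did not overlap for 7 of the 10 members and for 84.1% of all genes tested. NFKBIB rose by 1.50-fold (0.59, SE 0.049, adjusted p = 4.73e-22), RELB by 1.40-fold (0.49, SE 0.068, adjusted p = 1.41e-10), BCL3 by 1.38-fold (0.47, SE 0.056, adjusted p = 1.42e-13), RELA by 1.35-fold (0.43, SE 0.047, adjusted p = 2.19e-15) and NFKBIA by 1.21-fold (0.27, SE 0.056, adjusted p = 6.6e-06). In each of these 5 both tryptophan-depleted libraries lay above both untreated libraries.

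The sixth call, NFKB2, was less firm. Its log2 fold change was 0.18 (SE 0.056, adjusted p = 0.00242), but its groups overlapped in the deposited table, where a tryptophan-depleted library was at 1917 and an untreated one at 1918 (1951 and 1950 on the common scale of the 6 libraries, without overlap). The call was lost in 6 of 16 alternative analyses, among them those without untreated replicate 1 (0.06, adjusted p = 0.306) and without tryptophan-depleted replicate 1 (0.12, adjusted p = 0.181). TNFAIP3 fell by 0.90 on the log2 scale (SE 0.15, adjusted p = 1.07e-07) and NFKB1 fell by 0.52 (SE 0.049, adjusted p = 4.1e-19), and both tryptophan-depleted libraries lay below both untreated ones in each gene. REL (-0.06, 95% confidence interval -0.20 to 0.08, adjusted p = 0.476) and NFKBIE (0.07, interval -0.11 to 0.24, adjusted p = 0.525) did not pass, and their intervals leave room for changes in either direction.

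The histidine-depleted libraries were also compared directly with the tryptophan-depleted ones, in a fit where the untreated libraries entered only the scaling, the filter on low values and the estimate of the spread. All 10 members were higher after histidine depletion, with no overlap between the groups, while 38.7% of the 18264 genes tested were called higher and 44.7% were higher without overlap. A log2 difference of at least 1 was found for 8 members, again all but REL and BCL3, and for 16% of all genes tested. The median difference was 1.81 over the members and 0.011 over all genes tested. TNFAIP3 had the largest difference (5.38, SE 0.092, adjusted p = 9.91e-18), which is 41.7-fold and ranked 38 among all genes tested. NFKBIE followed with 2.52 (SE 0.075, adjusted p = 5.07e-15), RELB with 2.26 (SE 0.063, adjusted p = 2.18e-15), NFKB2 with 2.09 (SE 0.064, adjusted p = 6.97e-15) and NFKB1 with 1.93 (SE 0.040, adjusted p = 6.78e-17). The differences of RELA (1.69, SE 0.040, adjusted p = 2.62e-16), NFKBIB (1.57, SE 0.044, adjusted p = 2.2e-15) and NFKBIA (1.03, SE 0.047, adjusted p = 1.41e-12) came next. REL (0.56, SE 0.063, adjusted p = 3.2e-07) and BCL3 (0.46, SE 0.049, adjusted p = 1.44e-07) differed least. As the media differed in their base as well, the amino acid and the base cannot be told apart here either.

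**Figure D3:**
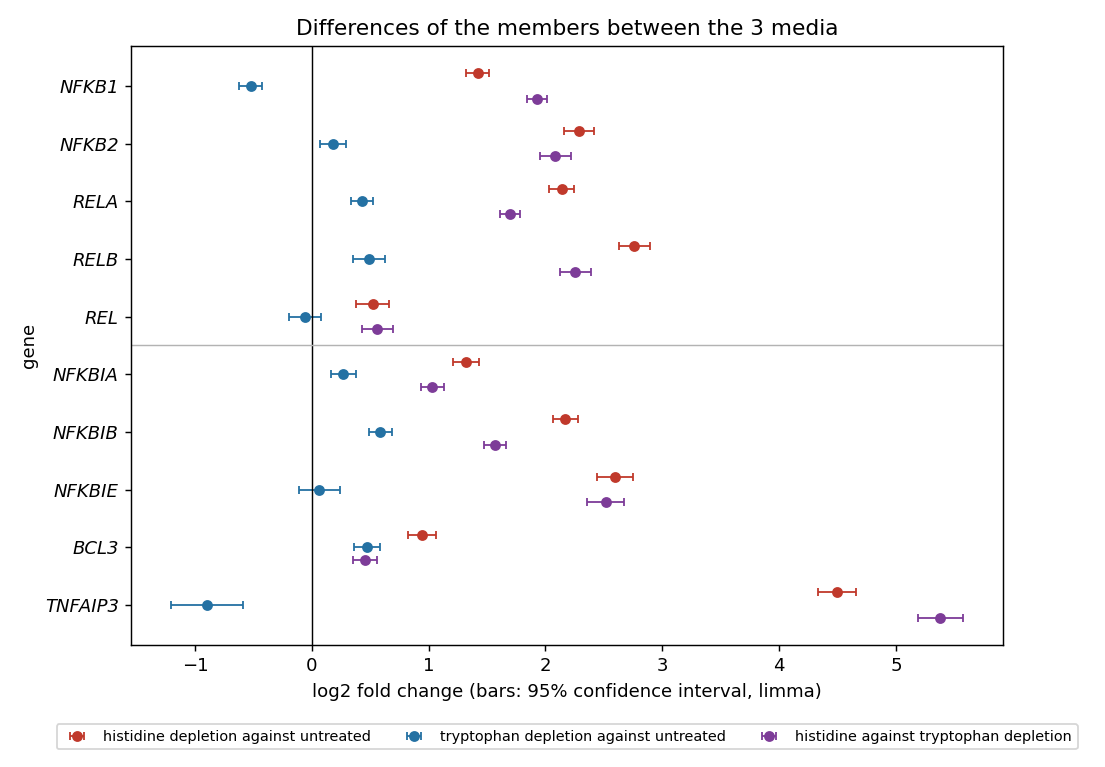
Log2 fold changes of the members (x axis, points) with 95% confidence intervals (bars) for the 3 comparisons between media, with genes on the y axis. All 10 histidine-depleted values lie above 0, from 0.52 for REL to 4.50 for TNFAIP3, whereas the values after tryptophan depletion lie between -0.90 for TNFAIP3 and 0.59 for NFKBIB.

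Levels were compared between genes as recovered reads per kilobase of exon and per 1000000 reads of the library, with the union of all annotated exons as the length. In untreated cells RELA (24.99 ± 0.49, SD, n = 2) and NFKBIB (22.8 ± 0.69) were the most abundant members, and the next were BCL3 (8.76 ± 0.13) and NFKBIA (8.61 ± 0.17), whose libraries overlapped. NFKB2 (6.23 ± 0.63) came before NFKB1 (4.97 ± 0.15) and RELB (4.77 ± 0.42), and the libraries of the latter pair overlapped. NFKBIE (2.997 ± 0.28), REL (0.874 ± 0.026) and TNFAIP3 (0.496 ± 0.055) closed the order. After histidine depletion RELA (96.6 ± 0.84) and NFKBIB (89.9 ± 0.66) were again first, RELB (28.3 ± 0.18) and NFKB2 (26.6 ± 0.35) came next, and REL (1.10 ± 0.046) took the last place below TNFAIP3 (9.88 ± 0.79). No neighbours in this order overlapped. After tryptophan depletion NFKBIB (32.5 ± 0.82) and RELA (32.0 ± 0.44) could not be ordered, and TNFAIP3 (0.251 ± 0.0061) was last.

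The order in the middle depends on the length used, since the annotated exons of NFKB1 add up to 15679 bases while its canonical transcript has 4055. With canonical lengths NFKB1 ranked 3 in untreated cells (19.2 ± 0.56), though its libraries overlapped with those of NFKBIA (18.7 ± 0.37), and NFKB2 ranked 6 (11.5 ± 1.2). RELA in first place in untreated and histidine-depleted cells, TNFAIP3 in last place in untreated and tryptophan-depleted cells and REL in last place after histidine depletion held with the exon union, the longest transcript and the canonical transcript. After tryptophan depletion RELA was above NFKBIB without overlap with the longest (54.9 ± 0.75 against 34.4 ± 0.87) and the canonical transcript (69.4 ± 0.95 against 63.5 ± 1.6), but not with the exon union.

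The make-up of the subunit mRNA pool shifted, as shares of the summed per-length level of the 5 Rel genes. RELA made up 59.8 ± 0.85% of the pool in untreated cells and 58.8 ± 0.53% after histidine depletion, 2 groups that overlapped, although with canonical lengths its share was higher without overlap (58.7% and 58.3% against 60.6% and 61.5%). RELB rose from 11.4 ± 0.61% (10.96% and 11.82%) to 17.2 ± 0.10% (17.3% and 17.2%), and NFKB2 from 14.9 ± 0.99% to 16.2 ± 0.21%. NFKB1 went from 11.9 ± 0.75% (12.4% and 11.4%) to 7.09 ± 0.20% (7.23% and 6.95%), and REL from 2.09 ± 0.0087% to 0.670 ± 0.028%. Per unit of RELA, RELB thus went from 0.191 ± 0.013 to 0.293 ± 0.0044, and per unit of NFKB1, NFKB2 from 1.26 ± 0.16 to 2.28 ± 0.034. In 3 of 3 lengths the libraries of the groups did not overlap for the shares of RELB, NFKB2, NFKB1 and REL, and the direction was the same. The groups did not overlap for both ratios either. Another length multiplies such a ratio by the same factor in every library, so the other lengths are no further check on the ratios. These shares describe mRNA, are no measure of protein or of dimers, and were not tested.

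After tryptophan depletion some shares shifted the same way as after histidine depletion and others did not. RELB took 12.9 ± 0.62% of the pool, above both untreated libraries in 3 of 3 lengths. REL took 1.63 ± 0.014% and NFKB1 6.69 ± 0.063%, both below the untreated libraries in 3 of 3. RELA made up 65.1 ± 0.14% of the pool, above both untreated libraries in 3 of 3 lengths. NFKB2, whose share had risen after histidine depletion, took 13.7 ± 0.68%, above both untreated libraries in 0 of 3 lengths and below them in 1 of 3. RELB per RELA was 0.199 ± 0.0091 and overlapped with untreated cells. NFKB2 per NFKB1 was 2.04 ± 0.083, near the ratio after histidine depletion, although here NFKB1 had fallen and NFKB2 had hardly moved.

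Within the cytosolic IkB mRNAs the gene for IkB beta dominated. NFKBIB made up 66.2 ± 0.19% of the 3 in untreated cells, 72.1 ± 0.36% after histidine depletion and 71.7 ± 0.31% after tryptophan depletion. NFKBIA went from 25.04 ± 0.34% to 15.1 ± 0.091% after histidine depletion and 21.8 ± 0.21% after tryptophan depletion. NFKBIE went from 8.71 ± 0.53% to 12.8 ± 0.45% after histidine depletion and 6.56 ± 0.11% after tryptophan depletion, so this IkB gene moved in opposite directions as a share of the 3. The summed IkB level per summed subunit level was 0.822 ± 0.00041 in untreated cells, 0.759 ± 0.0020 after histidine depletion and 0.923 ± 0.034 after tryptophan depletion. The ratio itself depends on the lengths (0.536 in untreated cells with the longest transcripts), but in 3 of 3 lengths it lay below the untreated libraries after histidine depletion and above them after tryptophan depletion.

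The pathway around the members was followed in 9 lists of 153 genes, ordered from ligands to targets. Their counts stand beside 39.1% of all genes tested called higher and 38.2% called lower after histidine depletion. After tryptophan depletion these shares were 36.1% and 34.8%. Of 13 ligands 7 were tested after histidine depletion, of which 6 were higher, none was lower and 1 did not pass. TNF and LTA were under 10 normalised counts in untreated cells and passed the filter only through the histidine-depleted libraries, and without them 4 of 5 were higher. TNFSF15, a TNF-family cytokine, rose from 2607 ± 64 to 8890.4 ± 277 normalised counts after histidine depletion (1.78, SE 0.051) and to 6456 ± 189 after tryptophan depletion (1.30, SE 0.048). LTB, a subunit of the lymphotoxin that acts on the non-canonical pathway, rose from 27.4 ± 6.3 to 189 ± 21 after histidine depletion and fell to 10.5 ± 3.2 after tryptophan depletion. IL18, an epithelial cytokine of the IL1 family, rose from 422 ± 16 to 646 ± 18 and fell to 249 ± 10. After tryptophan depletion 5 ligands were tested, with 2 higher and 2 lower.

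The receptors went both ways. Of 19 receptors 13 were tested. After histidine depletion 5 were higher and 6 lower, near the 39.1% and 38.2% of all genes tested. After tryptophan depletion 7 were higher and 4 lower, where 36.1% of all genes tested were higher and 34.8% lower. TNFRSF11A, the receptor of the osteoclast factor RANKL, fell from 1006 ± 11 normalised counts to 187 ± 18 and 106 ± 13. TLR4, the receptor of bacterial lipopolysaccharide, rose from 114 ± 15 to 286 ± 10 after histidine depletion and fell to 22.1 ± 1.1 after tryptophan depletion. IL1RL1, the receptor of IL33, rose from 12.9 ± 4.3 to 287 ± 47 after histidine depletion. It was at 28.5 ± 10 after tryptophan depletion (1.07), a call lost without untreated replicate 1 (0.75) or tryptophan-depleted replicate 2 (0.71). IL18R1, a receptor chain of IL18, rose from 35.4 ± 0.59 to 157 ± 7.2 and 90.5 ± 2.8.

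All 18 genes for adaptors were tested, with 14 higher and 3 lower after histidine depletion (39.1% higher over all genes tested) and 12 higher and 3 lower after tryptophan depletion (36.1%), and their medians were 0.56 and 0.32. BIRC3, a ubiquitin ligase of the TNF receptor complex and a known NF-kB target, was at 346 ± 43 normalised counts in untreated cells, 9677 ± 231 after histidine depletion (4.81, SE 0.068, adjusted p = 2.42e-25) and 394 ± 12 after tryptophan depletion. TRAF1, another target that binds TNF receptors, went from 98.7 ± 8.2 to 2029.6 ± 100.4 (4.36, SE 0.091) and to 207 ± 11 (1.06, SE 0.14). BCL10, which links antigen receptors to the kinase, rose 2.16 on the log2 scale after histidine depletion (SE 0.052) and 0.54 after tryptophan depletion (SE 0.055). TRAF2 went the opposite way in the 2 media, from 2527 ± 113 to 4921 ± 40 after histidine depletion and to 1173 ± 32 after tryptophan depletion.

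Kinase genes come next in the pathway. Of 12 tested kinase genes 9 were higher and 2 lower after histidine depletion, with a median of 0.30, and 5 were higher and 4 lower after tryptophan depletion, with a median of 0.04. MAP3K14, the kinase that sets off p100 processing, rose from 574 ± 22 to 1293 ± 42 normalised counts after histidine depletion (1.18, SE 0.070) and fell to 363 ± 15 after tryptophan depletion. MAP3K8, which is held by p105, fell in both media, from 826 ± 15 to 353 ± 32 and 422 ± 3.8. TAB3, an adaptor subunit of the TAK1 kinase, rose by 1.00 after histidine depletion (SE 0.058) and by 0.65 after tryptophan depletion (SE 0.059), and IKBKE, an IkB kinase relative, went from 762 ± 12 to 1111 ± 47 after histidine depletion and to 307 ± 2.5 after tryptophan depletion.

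Further down, the ubiquitin machinery that degrades IkB and processes the precursors had 8 of 13 genes higher and 4 lower after histidine depletion, and 6 higher and 4 lower after tryptophan depletion. UBE2D3, a ubiquitin-conjugating enzyme, rose from 19314 ± 667 to 70127 ± 643 normalised counts after histidine depletion (1.87, SE 0.056), and UBE2D2, its close relative, by 0.67 (SE 0.052), while after tryptophan depletion UBE2D3 did not pass (0.08, SE 0.049) and UBE2D2 was at -0.13 (SE 0.048), a call lost when either tryptophan-depleted library (-0.12 and -0.14) or untreated replicate 2 (-0.06) was left out. RBX1, the RING subunit of the ligase that marks IkB, rose by 1.29 after histidine depletion (SE 0.056) and fell by 0.92 after tryptophan depletion (SE 0.062). RBCK1, a subunit of the linear ubiquitin ligase, rose from 10596 ± 791 to 43525 ± 414 after tryptophan depletion (2.03, SE 0.050) and was at -0.15 after histidine depletion (SE 0.055), a call lost when either histidine-depleted library (-0.12 and -0.18) or untreated replicate 2 (-0.07) was left out. Among deubiquitinases and partners of TNFAIP3, 7 of 10 tested were higher and 1 lower after histidine depletion, and 6 higher and 2 lower after tryptophan depletion. CYLD, a deubiquitinase that like TNFAIP3 restrains signalling, rose by 2.07 after histidine depletion (SE 0.061), RNF11 by 1.50 (SE 0.051) and ZFAND5 by 1.32 (SE 0.051). All 3 also rose after tryptophan depletion, CYLD by 0.37 (SE 0.068), RNF11 by 1.10 (SE 0.049) and ZFAND5 by 0.74 (SE 0.047).

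Other IkB-family genes and cytosolic regulators had 6 of 11 genes higher and 1 lower after histidine depletion, and 3 higher and 3 lower after tryptophan depletion. NKIRAS1, a small GTPase that binds IkB, rose from 112 ± 6.5 to 416 ± 9.8 normalised counts after histidine depletion (1.90, SE 0.12), ANKRD42 by 0.90 (SE 0.074) and KPNA4, an importin, by 0.85 (SE 0.052). After tryptophan depletion NKIRAS1 rose by 1.11 (SE 0.13) and KPNA4 by 0.54 (SE 0.047), ANKRD42 did not pass (0.12, SE 0.080), the importin KPNA2 fell by 2.00 (SE 0.047) and IKBIP by 1.60 (SE 0.14). After histidine depletion KPNA2 did not pass (0.03, SE 0.053), though it was called lower with quantile normalization (-0.21) and with scaling to total reads (-0.16), and IKBIP rose by 0.75 (SE 0.096). Nuclear cofactors had 10 of 14 genes higher and 3 lower after histidine depletion, and 6 higher and 5 lower after tryptophan depletion. PDLIM2, which ends RELA activity in the nucleus, rose by 2.53 after histidine depletion (SE 0.085), and the acetyltransferases CREBBP and EP300 by 1.08 (SE 0.056) and 0.61 (SE 0.052). CREBBP also rose after tryptophan depletion (0.55, SE 0.048), EP300 did not pass (0.04, SE 0.048), and PDLIM2 was at 0.38 (SE 0.12), a call lost with DESeq2 (adjusted p = 0.059). NCOA1 rose by 0.76 (SE 0.056) and HDAC2 fell by 0.68 (SE 0.047) after tryptophan depletion, against -0.02 (SE 0.063, not passed) and -0.38 (SE 0.052) after histidine depletion.

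Of 42 listed NF-kB target genes outside the members 41 were matched, SOD2 being not analysed here, and 28 were tested after histidine depletion, with 17 higher, 4 lower and 7 that did not pass, where 39.1% of all genes tested were higher. CSF2 and SAA1 passed the filter only through the histidine-depleted libraries, and without them 15 of 26 were higher and 4 lower. The median of the tested targets was 0.91, and 0.87 without these genes. After tryptophan depletion 26 were tested, with 10 higher, 10 lower and 6 that did not pass, and a median of 0.05, where 36.1% of all genes tested were higher and 34.8% lower. Without CD83, which passed the filter only through the untreated libraries, 10 of 25 were higher and 9 lower, and the median was 0.13. In the direct comparison of the depletions 20 of 28 had higher and 2 had lower levels without histidine, with a median difference of 1.35, where 38.7% of all genes tested were higher and 38% lower. Without CSF2, SAA1 and CD83, which were under 10 in 1 of the depletions, 17 of 25 were higher and 2 lower. IL32, a cytokine gene, went from 232 ± 33 normalised counts to 9836 ± 27 after histidine depletion (5.41, SE 0.073, adjusted p = 1.14e-25) and was at 192 ± 12 after tryptophan depletion. GADD45B, a stress-response gene, rose from 182 ± 24 to 5528 ± 69 (4.93, SE 0.076) and to 425 ± 47 (1.21, SE 0.11), and CSF1, a growth factor of macrophages, from 58.1 ± 7.6 to 669 ± 17 (3.52, SE 0.13) and to 183 ± 10 (1.64, SE 0.17). Targets did not all follow, however. CXCL8, a neutrophil chemokine, was at 207 ± 4.2 in untreated cells and 178 ± 3.4 after histidine depletion (-0.21, SE 0.12, adjusted p = 0.12) and fell to 28.1 ± 9.5 after tryptophan depletion. LCN2, an iron-binding defence protein, fell from 12783 ± 514 to 6137 ± 440 after histidine depletion and rose to 92231 ± 1039 after tryptophan depletion (2.84, SE 0.053).

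As a check on the general response to amino acid shortage, 16 genes of the ATF4 programme were listed and 15 tested. After histidine depletion 3 were higher and 8 lower, with a median of -0.18, where 39.1% of all genes tested were higher and 38.2% lower. After tryptophan depletion 11 were higher and 3 lower, with a median of 0.98, where 36.1% of all genes tested were higher and 34.8% lower. DDIT3, a stress transcription factor, was at 1187 ± 15 normalised counts in untreated cells, 1909 ± 145 after histidine depletion and 4749 ± 13 after tryptophan depletion, and FGF21, a stress hormone, at 38.6 ± 13, 39.3 ± 0.59 and 352 ± 0.37. ATF3 rose in both media (1.49, SE 0.051, and 0.98, SE 0.050), and SLC7A11, the cystine transporter, fell in both (-1.41, SE 0.050, and -0.79, SE 0.047). The members and this list thus had their higher medians in different media. Any part of the amino acid response in the members was not tested.

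For the 3 members with the largest increase after histidine depletion, the protein-coding genes with the most similar profile were sought among 11004 candidates, from which the members were left out. Similarity was measured by the root mean square distance of log2 values centred on untreated cells over the 6 libraries. IL23A, a subunit of the cytokine IL23, was nearest to TNFAIP3 (distance 0.197), with 58.1 ± 6.4 normalised counts in untreated cells, 1135 ± 115 after histidine depletion and 31.3 ± 4.1 after tryptophan depletion. DUSP10, a phosphatase of stress kinases (0.393), and CALD1, an actin-binding protein (0.513), came next. RELB was nearest to FBXO28 (0.0711), HSPH1, a heat shock protein (0.0772), and NABP1, a single-strand DNA-binding protein (0.0978). NFKBIE was nearest to the receptor gene NOTCH3 (0.0893), RND1, a small GTPase (0.103), and FOSL1, a subunit of AP-1 (0.158). None of these 9 genes is in the pathway lists, and with 6 libraries in 3 groups the likeness describes the profile over the media.

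Because histidine was the amino acid removed, the coding sequences of the members were also counted for its codons. Histidine codons made up a median of 3.16% of the members' canonical coding sequences, against 2.45% over 13150 tested protein-coding genes (quartiles 1.81% and 3.16%). The share was highest in NFKBIB (3.93%, 14 of 356 codons) and TNFAIP3 (3.80%, 30 of 790) and lowest in RELA (1.63%, 9 of 551) and REL (2.04%, 12 of 587). Tryptophan codons made up a median of 0.377% of the members against 1.08% of tested genes, with 0 in BCL3 and 9 in TNFAIP3. A relation between codon content and change was not tested.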

How the data were processed

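RNA of HT29 cells was sequenced after 48 h in the 3 media (poly-A selected, stranded libraries). The authors aligned the reads with STAR 2.7.10a to GRCh38, counted them with htseq-count (HTSeq 2.0.5) against gencode 38 and deposited counts divided by DESeq2 size factors, so the unit is a signal, with 1 table for each depletion and the same untreated libraries in both. Use of strand and of the molecular identifiers in counting is not given in the sources used here, nor is whether a count is a read or a pair. The deposited values were whole multiples of 1 step per library (100% whole, tolerance 0.01), which gave back the reads. With 2 libraries an SD can lie below counting error, as for TNFAIP3 after tryptophan depletion (81 and 98 reads, an SD of 2.65% of the mean and a counting error of 10.6% per library if every count were independent).

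Identifiers were matched to gencode 44 (60357 of 60676, and 319 were not), which also gave coordinates, lengths and coding sequences. Each depletion was tested within its table with limma 3.58.1 in R 4.3.3 (trend, two-sided, Benjamini-Hochberg, threshold 0.05) on log2(normalised count + 1) over genes whose mean reached 10. Fold changes on this scale understate those of low genes. The 2 depletions were compared on recovered reads of all 6 libraries scaled by median of ratios, the scale on which levels are printed, where member changes differed from the table fits by at most 0.0090. As a count test edgeR 4.0.16 called 7169 genes higher and 7111 lower after histidine depletion, and DESeq2 1.42.0 called 6330 and 6154. The code was tested on simulated data.

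Members and lists were chosen with earlier results of these data known. The text names all members, up to 3 genes per list with the largest change after histidine depletion and up to 2 after tryptophan depletion (past the threshold, mean of at least 100 in the higher group, no overlap), and 3 nearest genes for 3 members. Alternatives were other pseudocounts, filters, scalings, limma settings, tools, a replicate block and each library left out. Added after values were seen were a limit on the fold change, canonical lengths and the use of the first promoter window of a gene. Python 3.11.15, pandas 2.3.3 and matplotlib 3.10.9 made tables and plots. Protein sequences and mass spectrometry data were not analysed here.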

Additional observations from a re-analysis of the deposited data

Results flagged for a closer look

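TNFAIP3 and NFKB1 were called in opposite directions in the 2 depletion media, and the direct comparison of the media differed. TNFAIP3 was at 3913 and 3519 normalised counts after histidine depletion and at 86 and 90 after tryptophan depletion, on either side of the untreated libraries (175 and 154), with a direct difference of 5.38 on the log2 scale (SE 0.092, adjusted p = 9.91e-18). NFKB1 was at 10838 and 10489 against 2851 and 2761, with untreated libraries at 4031 and 3991, and differed by 1.93 (SE 0.040, adjusted p = 6.78e-17). The base medium differed along with the amino acid, and the 2 cannot be told apart.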

How the results depend on the processing

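The 10 member calls after histidine depletion and in the direct comparison of the depletions kept their direction and their side of the threshold in all 160 and 170 values from alternative analyses, with adjusted p-values up to 0.00681 and 0.0014. After tryptophan depletion 154 of 160 values kept their side of the threshold and no call changed direction, whereas REL (-0.13 to 0.06) and NFKBIE (-0.05 to 0.18), which did not pass, lay on both sides of 0. The 6 values that lost the call were all NFKB2 (0.06 to 0.18 on the log2 scale, adjusted p 0.0602 to 0.306, of 16 values from 0.06 to 0.31 with adjusted p from 4.78e-09), without the filter, without the limma trend, with scaling to total reads, with DESeq2 and without 1 library of either group. Scaling to total reads moved the median of all genes by -0.19 after histidine depletion and by -0.10 in the direct comparison, and member values moved with it (REL to 0.33 after histidine depletion). With only the first promoter window of each gene, an alternative chosen after seeing the data, 5 members had a kappaB match in place of 7. With a limit of 1 on the absolute log2 fold change, 3002 genes were higher and 2947 lower after histidine depletion, 1801 and 1873 after tryptophan depletion, and 2914 and 2880 in the direct comparison, and 0 members remained higher and 0 lower after tryptophan depletion. KPNA2, which did not pass after histidine depletion (0.03), was called lower with quantile normalization (-0.21, adjusted p = 0.000392) and with scaling to total reads (-0.16, adjusted p = 0.000985), and the cause was not tested. Of 2055 values of named list genes 23 lost and 10 gained a call (lost by RBCK1 after histidine depletion, IL1RL1, UBE2D2, PDLIM2 and IL32 after tryptophan depletion and MAP3K8 in the direct comparison), and 33 of 980 list counts moved by over 1.5 times. Of 78 shares, sums and ratios under other lengths 74 moved by more than the spread between libraries.

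Libraries of the same number deviated together only weakly (correlations of deviations 0.117, -0.053 and -0.10 over 12480 genes), which cannot show whether the samples were made in pairs. With a replicate block 7311 genes were called higher and 7121 lower after histidine depletion and no member call changed.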
